A study of Mus musculus with 6 samples.

Results

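The 10 genes described here mark T cells and natural killer (NK) cells: Cd3d, Cd3e, Cd3g, Cd4, Cd8a, Cd8b1, Gzma, Gzmb, Nkg7 and Prf1. They were set by name, with earlier results of these data known and with no threshold on their values, and each matched 1 of the 24908 gene rows of a bulk RNA-seq table, where they stand in capitals (CD3D, CD3E, CD3G, CD4, CD8A, CD8B1, GZMA, GZMB, NKG7 and PRF1). The table holds FPKM (fragments divided by transcript length in kilobases and by the library's mapped reads), a level per length, in 6 libraries of mouse prostate. The anterior (AP), dorsolateral (DLP) and ventral (VP) lobes of 1 wild-type (WT) mouse and of 1 MYC mouse gave 1 library each.

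Both animals were male FVB littermates, 12 weeks old, kept on a purified diet. The MYC mouse was heterozygous for a human c-MYC transgene whose ARR2Pb promoter, a modified probasin promoter, drives it in the prostate epithelium. Lobes were digested with enzymes and strained, and RNA was taken from the resulting cell suspension, so that the RNA comes from whichever cells survived dissociation. The 3 libraries of a genotype come from the same mouse. MYC and WT therefore differ by genotype and by individual at once, the 2 cannot be told apart, and no p-value is given.

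T cells recognise peptides through a receptor whose signal enters the cell through the CD3 chains, and the coreceptors CD4 and CD8 decide which class of antigen-presenting molecule is read. Cytotoxic T cells and NK cells kill by releasing granules that hold perforin, which opens the target membrane, and granzymes, the proteases that then act inside the target. NK cells lack the T cell receptor and are recognised by other surface receptors. Lymphocytes are a small share of a healthy prostate, which consists mostly of luminal and basal epithelium in a fibromuscular stroma.

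Low values are read with their counting error. The value of 1 read was recovered from the steps in which low FPKM fall, and gave depths of 25.4 M reads in WT AP and 34.7 to 49.7 M in the other libraries. Reads per gene were estimated from these depths and from transcript lengths, and each interval below is a 95% interval on those reads (exact Poisson for a level, exact Clopper-Pearson for a ratio). Such intervals cover counting error only, with nothing for the spread between animals. The luminal keratins Krt8 and Krt18 were abundant in every library, between 387.9 and 1292 FPKM for Krt8, and none of 4 luminal genes differed 2-fold between the mice in any lobe. Of 4 basal genes, 2 were 2-fold higher in MYC DLP and all 4 were higher beyond counting error, while in VP 1 was 2-fold lower and 3 were lower beyond counting error, and in AP 1 was 2-fold higher and 1 lower. The basal sum was 407 to 1337 FPKM in the WT libraries and 278 to 1286 in the MYC libraries, and its part in the member values was not tested. The mouse Myc row stood at 200.6 to 230.0 FPKM in the 3 WT lobes, and for MYC at 230.9 in AP, 586.1 in DLP and 1696 in VP, so that the MYC AP library did not differ from WT AP in this row. Seminal vesicle secretion genes, which belong to a neighbouring gland, set the MYC AP library apart: all 7 listed were at least 2-fold higher than in WT AP, with Svs4 at 292.5 FPKM against a listed 0. In MYC DLP 4 of the 7 were also at least 2-fold higher, at a lower level. Their sum was 0.186 FPKM in WT DLP and 11.3 in MYC DLP, beside 524 in MYC AP. The part of these genes in the AP and DLP values was not tested.

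The members spanned the middle and upper part of the table. Gzmb, with a mean of 11.59 FPKM over the 6 libraries, stood above 80.8% of all genes, and Cd8b1, with a mean of 0.2811 FPKM, above 42.2%. Nkg7, Cd3g, Cd3e and Gzma stood above 66.3%, 64.7%, 63.7% and 59.1% of genes, and the other members above 45.9% to 47.9%. Cd3e, Cd3g, Gzma, Gzmb and Nkg7 reached a mean of 1 FPKM, and the other 5 members did not. In bulk RNA, fewer cells of a type and less RNA per cell cannot be told apart, so that every level below is a level of the suspension and not of a cell.

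Several members are neighbours in the genome (coordinates of GRCm38.p6, the patched form of the mm10 build named for these files). Cd3g (chr9:44969572-44980431), Cd3d (chr9:44981769-44987052) and Cd3e (chr9:44998735-45009663) lie within 40.1 kb of each other, and Cd3g and Cd3d are read from opposite strands with 1.34 kb between them. Cd8b1 (chr6:71322788-71337492) and Cd8a (chr6:71373427-71379171) are 35.9 kb apart, while Cd4 (chr6:124864693-124888247) lies far from them on the same chromosome. The effector genes are scattered, with Nkg7 at chr7:43437138-43438246, Prf1 at chr10:61297751-61304684, Gzma at chr13:113093824-113100981 and Gzmb at chr14:56258836-56262334.

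The upstream sequences of Cd3g, Nkg7, Gzma and Gzmb are shown because the first 2 were higher in MYC DLP and VP whereas the 2 granzymes went apart in VP. Each is the 250 bases before the gene start in RefSeq on GRCm38.p6, read 5′ to 3′ on the gene's strand, and capitals mark matches to 4 short motifs. The motifs were searched on both strands: RUNX (TGTGGT or ACCACA), ETS (AGGAAG or CTTCCT), T-box (GGTGTG or CACACC) and E-box (CAGCTG or CAGGTG or CACCTG), and no 2 matches overlap in the windows shown. The windows are chr9:44980432-44980681 (minus strand), chr7:43436888-43437137 (plus strand), chr13:113100982-113101231 (minus strand) and chr14:56262335-56262584 (minus strand).
Cd3g: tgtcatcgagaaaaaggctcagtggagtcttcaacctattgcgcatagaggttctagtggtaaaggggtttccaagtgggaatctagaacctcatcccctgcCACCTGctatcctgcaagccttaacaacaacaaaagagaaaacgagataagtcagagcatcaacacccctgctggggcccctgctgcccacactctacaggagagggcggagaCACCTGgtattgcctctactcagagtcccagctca
Nkg7: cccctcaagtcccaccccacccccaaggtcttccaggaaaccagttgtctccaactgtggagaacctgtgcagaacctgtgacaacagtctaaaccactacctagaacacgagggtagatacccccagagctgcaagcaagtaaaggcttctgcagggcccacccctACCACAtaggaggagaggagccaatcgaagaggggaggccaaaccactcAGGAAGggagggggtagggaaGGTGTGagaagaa
Gzma: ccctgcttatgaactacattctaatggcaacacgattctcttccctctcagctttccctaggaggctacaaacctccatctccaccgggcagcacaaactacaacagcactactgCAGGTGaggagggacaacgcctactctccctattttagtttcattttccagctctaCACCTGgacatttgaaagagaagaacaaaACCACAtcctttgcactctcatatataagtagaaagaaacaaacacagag
Gzmb: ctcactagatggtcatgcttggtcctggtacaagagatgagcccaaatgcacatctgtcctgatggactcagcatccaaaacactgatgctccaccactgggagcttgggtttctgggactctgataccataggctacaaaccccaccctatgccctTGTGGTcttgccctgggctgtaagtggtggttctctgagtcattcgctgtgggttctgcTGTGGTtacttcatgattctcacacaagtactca
Upstream of Gzmb both matches are RUNX letters, 93 to 88 and 34 to 29 bases before the start, and upstream of Gzma there is 1 RUNX match beside 2 E-box matches. The 2 matches of Cd3g are E-boxes, and Nkg7 holds 1 RUNX, 1 ETS and 1 T-box match. Among 32851 mouse promoters of this length, 14% hold the RUNX letters, 29.5% the ETS, 16.3% the T-box and 27.7% the E-box letters, and 61.4% hold at least 1 of the 4. Of the 8 members with an upstream sequence, 4 hold RUNX, 4 ETS, 2 T-box and 4 E-box letters, and Cd8a holds none. The windows of Cd3d, Cd3e and Prf1 run into their annotated gene spans, and over the other 5 the counts are 3, 1, 1 and 2. A match of 6 letters is a description of the sequence and not evidence that a factor binds there.

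In DLP and VP most members were higher in MYC, and in AP the differences were smaller and fewer. On the log2(FPKM + 1) scale, which understates the change of low genes, the median log2 ratio of MYC over WT over the 10 members reached 0.19 for AP, 1.22 for DLP and 0.79 for VP. The median over all genes was 0.00 in each lobe. As plain FPKM ratios, with no value added, the member medians were 1.5-fold in AP (9 members), 3.8-fold in DLP and 4.59-fold in VP. No member passed a 2-fold difference on the log2(FPKM + 1) scale in AP, where 1.12% of all genes were at least 2-fold higher and 0.321% lower. With 0.1 added in place of 1, 4 members were 2-fold higher in AP, 8 in DLP and 7 in VP, against 4.38%, 8.19% and 7.67% of all genes. In DLP, 6 of 10 members were at least 2-fold higher (Cd3e, Cd3g, Cd8a, Cd8b1, Gzmb and Nkg7) and none was lower, against 3.85% of all genes higher and 1.82% lower. In VP, 3 were higher (Cd3e, Cd3g and Cd4) and Gzma was lower, against 3.76% of all genes higher and 3.03% lower. Of the 12361 genes that reached a mean of 1 FPKM, 2.05% were 2-fold higher in AP, 6.46% in DLP and 6.88% in VP, and 0.599%, 3.39% and 5.95% were lower.

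Counting error is a weaker bar, since many genes of these deep libraries pass it. The interval of the FPKM ratio lay above 1 for 4 members in AP, Cd3d, Cd3e, Cd8a and Nkg7 (36.4% of genes with a value above 0 in both libraries), 8 in DLP (35.3%) and 8 in VP (36.6%). It lay below 1 for Gzma in AP (14.6% of genes) and in VP (31.5%) and for no member in DLP (26.8%).

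**Figure D1:**
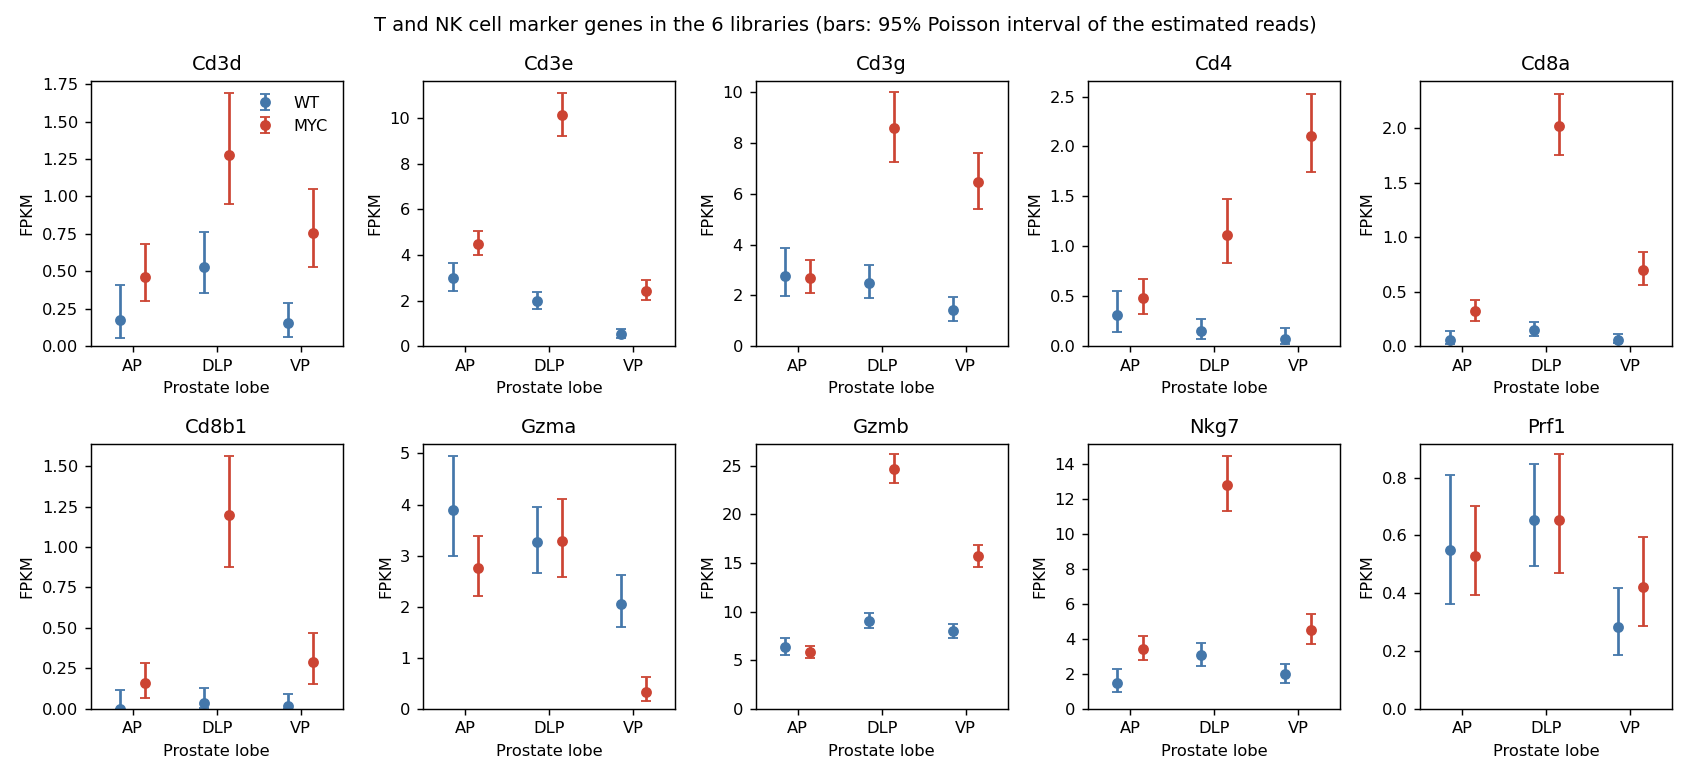
FPKM (vertical axes, linear, starting at 0, a scale of its own for each gene) of the 10 members in AP, DLP and VP (horizontal axes) of the WT (blue) and the MYC mouse (red). Points are single libraries and bars the 95% Poisson interval of the estimated reads; the MYC DLP point is the highest of the 6 for all genes but Cd4 (MYC VP), Gzma (WT AP) and Prf1, for which both DLP libraries stand at 0.653.

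The CD3 chains belong to the signalling complex of the T cell receptor. Cd3e, which codes for the epsilon chain, had 3.00, 1.98 and 0.531 FPKM in AP, DLP and VP of the WT mouse and 4.5, 10.1 and 2.43 in those of the MYC mouse. The MYC library was higher in each lobe, by 1.5-fold in AP (1.18 to 1.92), 5.12-fold in DLP (4.17 to 6.36) and 4.58-fold in VP (3.10 to 7.03). Cd3g, the gamma chain, had 2.78, 2.49 and 1.40 FPKM in WT AP, DLP and VP and 2.69, 8.59 and 6.46 in the same lobes of MYC. Its 2 AP libraries were alike (ratio 0.967, interval 0.630 to 1.46), while DLP was 3.45-fold higher (2.53 to 4.69) and VP 4.60-fold higher (3.14 to 6.79). Cd3d, the delta chain, was the lowest of the 3 and stood on few reads: 0.174, 0.528 and 0.152 FPKM in WT AP, DLP and VP, about 5, 28 and 8 reads, and 0.461, 1.28 and 0.758 FPKM in MYC. Its ratio was 2.65 in AP, with an interval that starts at 1 (1 to 8.86), 2.42 in DLP (1.5 to 4.00) and 4.98 in VP (2.39 to 13.1). All 3 chains were thus above WT beyond counting error in DLP and in VP, and in AP Cd3g was not.

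The 3 chains did not keep a fixed proportion. Cd3e over Cd3g, both per length, was 1.08 in WT AP, 0.796 in WT DLP and 0.378 in WT VP, and 1.67, 1.18 and 0.376 in MYC AP, DLP and VP. In both VP libraries Cd3e was therefore below Cd3g, by nearly the same ratio (intervals 0.224 to 0.616 and 0.292 to 0.483). Cd3e over Cd3d ran from 3.21 in MYC VP to 17.2 in WT AP, the latter with an interval of 7.07 to 53.8 that reflects the 5 Cd3d reads.

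The coreceptors were nearly unread in the WT libraries and differed between the MYC lobes. Cd4, the coreceptor of helper and regulatory T cells that some dendritic cells also carry, had 0.312, 0.147 and 0.0698 FPKM in WT AP, DLP and VP, about 10, 9 and 5 reads. In the same lobes of MYC it had 0.478, 1.12 and 2.10 FPKM, about 31, 51 and 114 reads. The ratio was 1.53 in AP (0.757 to 3.62), 7.60 in DLP (3.75 to 17.8) and 30.1 in VP (11.4 to 85.8), so that AP did not differ beyond counting error and the VP ratio rests on about 5 WT reads.

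Cd8a, whose product pairs with itself or with the beta chain on cytotoxic T cells, had 0.0535, 0.146 and 0.0579 FPKM in WT AP, DLP and VP and 0.320, 2.03 and 0.699 in MYC. In reads these are about 4, 20 and 8 against 46, 205 and 84. The ratio was 5.99 in AP (2.15 to 22.5), 13.8 in DLP (8.78 to 23.3) and 12.1 in VP (6.11 to 30.1), above 1 in each lobe, and in AP it was the largest ratio of any member. Cd8b1, the beta chain, was listed at 0 in WT AP, where 3 reads would be worth 0.0970 FPKM, and had 0.0332 FPKM in WT DLP and 0.0158 in WT VP, about 2 reads and 1 read. Its MYC values were 0.156 FPKM for AP, 1.20 for DLP and 0.286 for VP. The DLP ratio of 36.0 (8.92 to 288) and the VP ratio of 18.1 (2.56 to 710) rest on those 2 reads and 1 read, and no ratio is given for AP. In the 3 MYC libraries Cd8a exceeded Cd8b1 by 2.05-fold in AP, 1.70-fold in DLP and 2.44-fold in VP, with intervals that overlap.

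The balance of the coreceptors differed between the MYC lobes. Cd4 over Cd8a, both per length, was 0.552 in MYC DLP (0.397 to 0.751) and 3.01 in MYC VP (2.24 to 4.03), so that Cd8a was the higher in DLP and Cd4 in VP. MYC AP lay between them at 1.49 (0.913 to 2.40). In WT the ratio was 5.84 in AP (1.59 to 24.1), 1 in DLP (0.399 to 2.29) and 1.21 in VP (0.356 to 4.79). These intervals are wide and overlap, so that the WT lobes were not ordered.

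The cytotoxic granule genes did not move as a group. Gzmb, granzyme B, the granzyme that triggers caspases, was the highest member in every library, at 6.32, 9.03 and 8.01 FPKM in WT AP, DLP and VP and 5.80, 24.7 and 15.7 in MYC. It was alike in AP (ratio 0.918, 0.766 to 1.10) and higher in MYC by 2.73-fold in DLP (2.45 to 3.04) and 1.96-fold in VP (1.75 to 2.20). Nkg7, a granule membrane protein of NK and cytotoxic T cells, had 1.48, 3.07 and 1.99 FPKM in WT AP, DLP and VP and 3.42, 12.8 and 4.53 in MYC. It was higher in MYC in each lobe, 2.30-fold in AP (1.44 to 3.83), 4.18-fold in DLP (3.26 to 5.42) and 2.28-fold in VP (1.63 to 3.19).

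Gzma, granzyme A, a tryptase abundant in resting NK cells, was the exception. WT AP, DLP and VP had 3.89, 3.27 and 2.06 FPKM of it, and the same lobes of MYC 2.75, 3.28 and 0.325. The 2 DLP libraries were alike (ratio 1, 0.737 to 1.37), AP was slightly lower in MYC (0.707, 0.509 to 0.989, an interval that holds 1 at 99% or with the shortest transcript length), and in VP the WT library was 6.34-fold higher (3.08 to 14.2). The MYC VP value rests on about 9 reads against about 67 in WT VP. It is the only member that was lower in MYC by 2-fold in any lobe.

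Prf1, perforin, did not differ beyond counting error in any lobe. It had 0.550, 0.653 and 0.283 FPKM in WT AP, DLP and VP, and 0.529, 0.653 and 0.421 in MYC. The ratios were 0.961 in AP (0.587 to 1.61), 1 in DLP (0.655 to 1.52) and 1.49 in VP (0.852 to 2.58). At 26 to 57 estimated reads per library, these intervals hold levels in MYC up to 1.61-fold higher or 1.7-fold lower in AP, 1.52-fold higher or 1.53-fold lower in DLP, and 2.58-fold higher or 1.17-fold lower in VP.

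**Figure D2:**
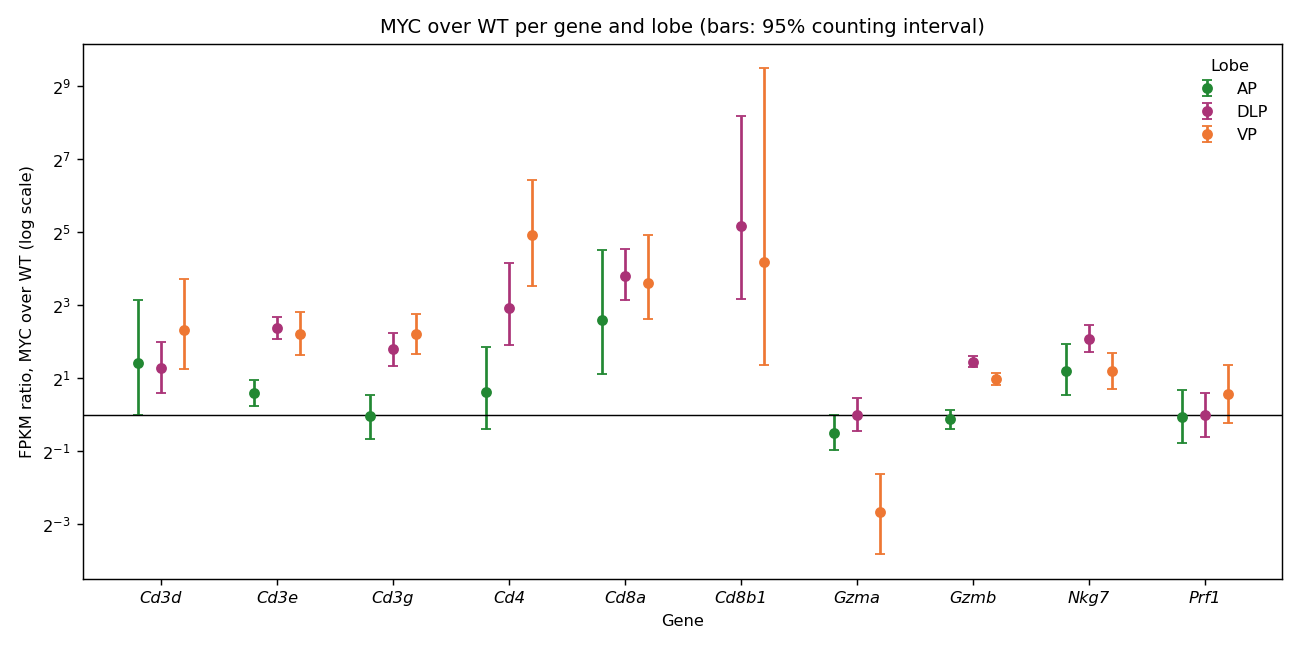
FPKM ratio of MYC over WT (vertical axis, log scale) for each member (horizontal axis) in AP (green), DLP (purple) and VP (orange), with bars for the 95% counting interval and a line at 1. Cd8b1 has no AP point because it is listed at 0 in WT AP; Gzma in VP, at 0.158, is far below the line, and the widest bars belong to Cd8b1.

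The divergence of granzyme B from granzyme A and perforin can be read within each library. Gzmb over Gzma was 1.63, 2.77 and 3.89 for AP, DLP and VP of WT and 2.11, 7.51 and 48.4 for those of MYC. The MYC interval lay above the WT interval in DLP (5.95 to 9.64 against 2.24 to 3.47) and in VP (24.8 to 104 against 3.01 to 5.10), and the AP intervals overlapped. Gzmb over Prf1 was 13.8 in WT DLP (10.5 to 18.5) and 37.7 in MYC DLP (27.7 to 52.7), whereas the VP intervals overlapped, at 28.3 in WT (19.0 to 43.6) and 37.3 in MYC (26.3 to 55.0). A ratio of this kind does not depend on the scaling of the library.

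**Figure D3:**
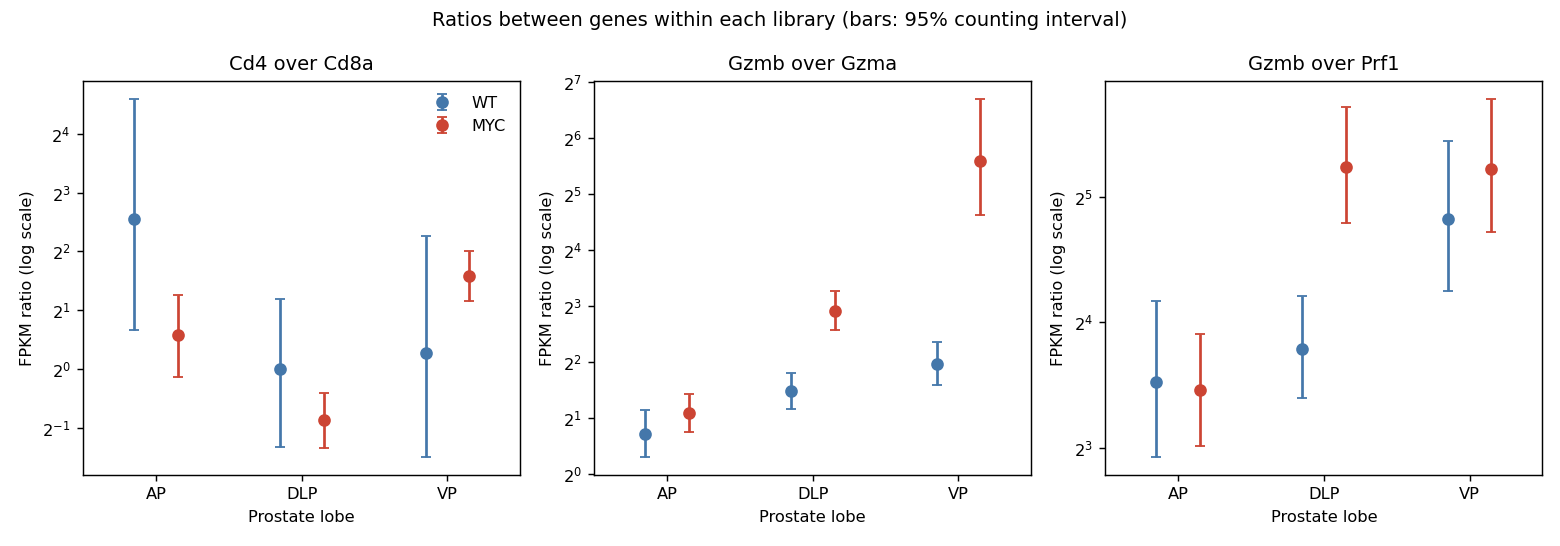
FPKM ratio of Cd4 over Cd8a (left), Gzmb over Gzma (middle) and Gzmb over Prf1 (right) on log scales, in AP, DLP and VP of the WT (blue) and MYC (red) mouse, with 95% counting intervals. In MYC, Cd4 over Cd8a is 0.552 in DLP and 3.01 in VP, and Gzmb over Gzma reaches 48.4 in VP.

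The order of the lobes differed between the mice. In WT, 4 members were highest in AP and 6 in DLP, and none in VP. The first and second lobe were apart beyond counting error for Cd3d, Cd3e, Cd8a and Nkg7 only, so that for the other 6 members the top 2 WT lobes cannot be ordered. In MYC, 9 members were highest in DLP, and Cd4 was highest in VP. The lead of MYC DLP over its next lobe was beyond counting error for 7 of those 9 and not for Gzma and Prf1. In MYC, VP exceeded AP beyond counting error for Cd3g, Cd4, Cd8a and Gzmb, whereas AP exceeded VP for Cd3e and Gzma. WT VP held the lowest value of the 3 WT lobes for Cd3d, Cd3e, Cd3g, Cd4, Gzma and Prf1, though within counting error of the next lobe for Cd3d and Cd4.

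Other genes of the T cell receptor pathway and T cell lineage were taken from a list of 27, of which 24 had a row (Trac, Trbc1 and Trbc2 were not analysed here). In AP none of the 24 differed 2-fold, in DLP 10 were higher and in VP 1, and none was 2-fold lower in any lobe. The medians of the log2 ratio were -0.01, 0.83 and 0.39. The 10 in DLP were the kinases Lck (1.71 FPKM in WT, 6.44 in MYC) and Zap70 (0.501 and 2.09), which start the receptor signal, the adaptors Lat (0.319 and 2.90) and Lcp2 (1.37 and 4.57), which carry it on, the surface proteins Cd2 (1.02 and 3.65) and Cd6 (0.141 and 1.40), the costimulator Icos (0.389 and 2.14), the IL-7 receptor Il7r (1.89 and 6.40), and the inhibitory receptors Ctla4 (0.0858 and 3.81) and Pdcd1 (0.528 and 3.90). On the FPKM scale Ctla4 was 44.4-fold higher (14.7 to 219, on about 3 WT reads) and Pdcd1 7.39-fold (5.32 to 10.5), beside 5.12-fold (4.17 to 6.36) for Cd3e in the same lobe, and the difference between these ratios was not tested. Il7r was also the gene that passed in VP (1.02 to 3.11 FPKM), while in AP it was lower in MYC (3.85 to 1.79 FPKM). Foxp3, the factor of regulatory T cells, named after its values were seen, had 0.0243 FPKM in DLP of WT and 0.686 in DLP of MYC, and between 0.0115 and 0.0602 in the other 4 libraries.

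Of the 4 most abundant genes of that list, Il7r and Lck were higher in MYC DLP and VP beyond counting error, while Tcf7 was lower in MYC DLP and Thy1 in MYC VP, also beyond counting error. Lef1, named after its values were seen, was lower in MYC DLP as well (2.64 and 1.46 FPKM). Thy1, carried by T cells and also by fibroblasts, had 31.0, 19.3 and 5.45 FPKM in WT AP, DLP and VP and 44.1, 19.5 and 3.12 in MYC. Tcf7, a factor of naive and memory T cells, had 5.79, 5.29 and 1.73 FPKM in WT and 6.04, 3.56 and 1.37 in MYC. The sum of the 10 fibroblast, smooth muscle and endothelial markers was 1468 FPKM in WT DLP against 794 in its MYC counterpart, and 774 against 291 in VP. Most of this sum is Dcn (1155 and 453.9 FPKM in DLP, 582.7 and 156.1 in VP), and the list was mixed: in DLP 3 of its genes were 2-fold lower and 2, Col1a1 and Col3a1, were 4.21-fold and 4.22-fold higher, while in VP 3 were lower and none higher. Its part in the Thy1 and Tcf7 values was not tested.

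Of 18 NK cell receptor and cytotoxic effector genes, none differed 2-fold in AP, 9 were higher in DLP and 4 in VP, and none was 2-fold lower. The medians were 0.18, 0.97 and 0.72. The 4 that passed in both DLP and VP were the chemokines Xcl1 (20.1 to 43.9 FPKM in DLP, 12.0 to 32.5 in VP) and Ccl5 (19.7 to 44.2, and 11.8 to 32.0), the IL-2 and IL-15 receptor chain Il2rb (4.29 to 14.2, and 2.61 to 10.1) and the granule protease Ctsw (2.41 to 7.89, and 0.947 to 4.17). The other 5 passed in DLP: the granzyme Gzmc (0.378 to 6.59 FPKM, 17.4-fold) and the receptors Ncr1 (0.842 to 3.09), Klrd1 (0.449 to 2.96), Klrk1 (0.366 to 2.05) and Klrc1 (0.761 to 2.62).

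In VP, where Gzma was lower, 13 of the 18 genes were higher in MYC beyond counting error and none was lower. Klrk1, which CD8 T cells also use, had 0.203 FPKM for WT and 1.22 for MYC, and Klrc1 had 0.306 and 1.53. Ncr1, the receptor that marks NK cells and related innate lymphoid cells, had 0.560 and 0.387 FPKM, and its interval of the ratio held 1. Gzmm, Klre1 and Eomes, named after their values were seen, had 0.240 and 0.0528, 0.228 and 0.241, and 0.103 and 0.0693 FPKM, and none of these ratios was beyond counting error. The NK receptors Klrb1c (0.2496 and 0.493 FPKM) and Klrd1 (0.457 and 1.29) and the factor Tbx21 (0.309 and 0.881), which NK cells share with T cells, were among the 13 that were higher. In DLP Ncr1 was 3.66-fold higher in MYC, while Gzma was not. Of 5 genes of gamma delta T cells and innate lymphoid cells with a row, none differed 2-fold in any lobe on the log2(FPKM + 1) scale. As plain FPKM ratios, Il17a, Cd163l1 and Il23r were 14.5-fold, 3.85-fold and 3.65-fold higher in MYC DLP, all beyond counting error and at levels of at most 1.24 FPKM in any library. Cd163l1 was lower in MYC AP (1.24 and 0.411 FPKM) and Sox13 in MYC VP (8.64 and 4.04), both beyond counting error.

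Genes whose levels ran most like the CD3 chains were sought over the 6 libraries, leaving out those whose mean was below 1 FPKM. With the mean log2(FPKM + 1) of Cd3d, Cd3e and Cd3g, Pearson's r was 0.995 for Gimap3, 0.992 for Rgs1, Arhgap9 and Zfp280b and 0.991 for Ptprcap. Gimap3 had 1.76, 1.64 and 0.591 FPKM in WT AP, DLP and VP and 2.49, 7.88 and 2.72 in MYC. Among members outside the CD3 chains, r was 0.93 for Cd8a, 0.91 for Cd8b1, 0.90 for Nkg7, 0.76 for Gzmb, 0.71 for Cd4, 0.63 for Prf1 and -0.01 for Gzma, and it was 0.98 for Ptprc, the gene of CD45. The 6 points share 2 animals, and MYC DLP is the highest library for most of these genes, so that r describes these libraries and no more.

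The members were not the only leukocyte genes that were higher in MYC DLP and VP. Of 8 genes of all leukocytes, 7 were at least 2-fold higher in DLP and 6 in VP, with median log2 ratios of 1.78 and 1.33, against 0 of 8 and 0.02 in AP. Their summed level was 121, 89.8 and 52.2 FPKM for AP, DLP and VP of WT and 139, 233 and 120 for those of MYC, and none was at 0. Macrophage and monocyte genes differed as much: 12 of 12 were higher in DLP and 9 in VP, none in AP, and Lyz2 (lysozyme) went from 11.8 to 132 FPKM in DLP and from 7.82 to 110 in VP. Their sum was 244 FPKM in WT AP and 225 in MYC AP, where 4 of the 12 were lower beyond counting error, and went from 105 to 543 in DLP and from 67.5 to 350 in VP.

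**Figure D4:**
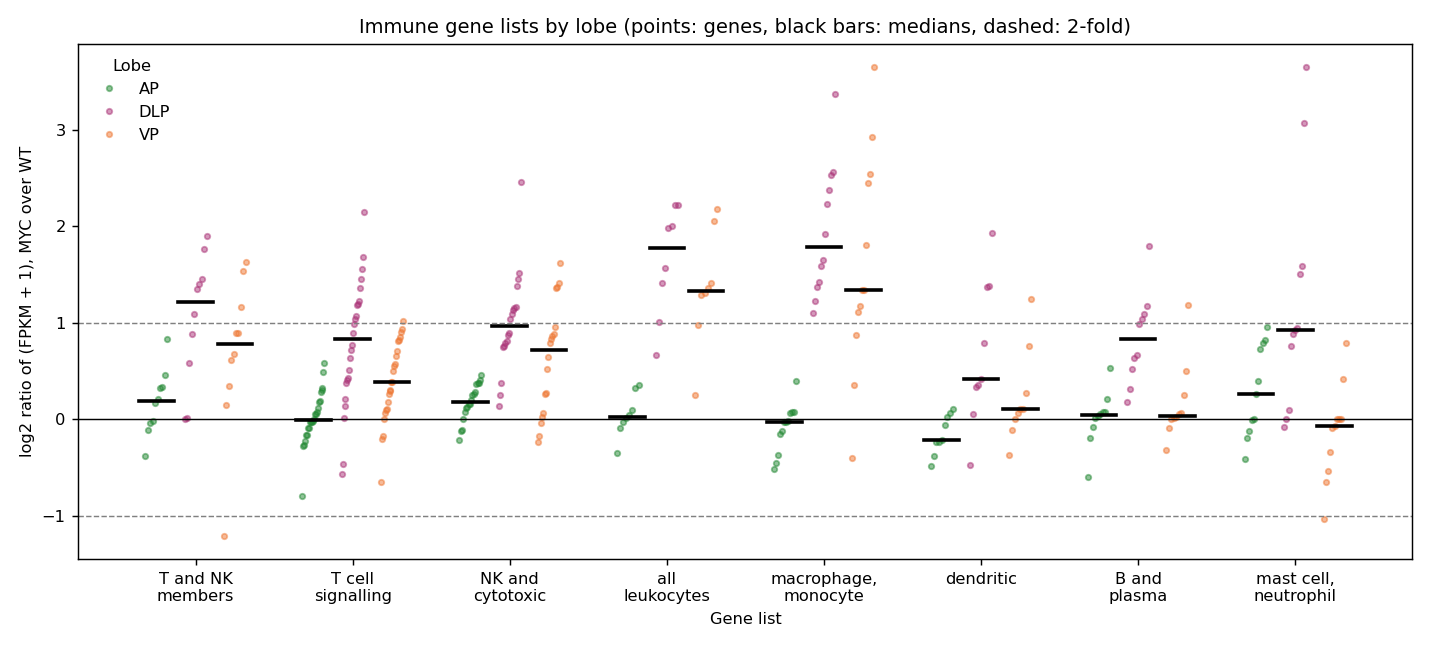
Log2 ratio of (FPKM + 1), MYC over WT (vertical axis), for the genes of 8 immune lists (horizontal axis) in AP (green), DLP (purple) and VP (orange). Points are genes, black bars medians and dashed lines the 2-fold threshold; the AP medians lie between -0.22 and 0.26, and in DLP and VP the medians of the macrophage list (1.79 and 1.34) and of all leukocytes (1.78 and 1.33) lie above those of the members (1.22 and 0.79) on this scale, which compresses low genes; as plain FPKM ratios the medians are 3.8 for the members and 4.01 for all leukocytes in DLP, and 4.59 and 3.77 in VP.

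Set against Ptprc, the member levels ordered differently. Ptprc itself had 4.59, 3.18 and 1.91 FPKM in WT AP, DLP and VP and 4.62, 11.4 and 4.72 in MYC. Cd8a over Ptprc was 0.0461 in WT DLP and 0.177 in MYC DLP, and 0.0303 and 0.148 in VP. Cd4 over Ptprc was 0.0463 and 0.0978 in DLP and 0.0366 and 0.445 in VP. These coreceptors thus exceeded WT also per unit of Ptprc. Gzma over Ptprc was lower in MYC in each lobe, at 1.03 and 0.287 in DLP and 1.08 and 0.0687 in VP, and Prf1 over Ptprc was 0.206 and 0.0572 in DLP and 0.148 and 0.0892 in VP. Gzmb over Ptprc was also lower in MYC, at 2.84 and 2.16 in DLP and 4.19 and 3.32 in VP. Of the CD3 chains over Ptprc, Cd3e was 0.624 and 0.887 in DLP, Cd3g 0.784 and 0.752 and Cd3d 0.166 and 0.112, and in VP they were 0.278 and 0.515, 0.735 and 1.37, and 0.0797 and 0.16.

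Some markers of B cells and dendritic cells were also higher in MYC DLP. In MYC DLP the B cell gene Ms4a1 had 1.06 FPKM, against a listed 0 in WT DLP, and it was at most 0.0394 FPKM in both VP libraries. Cd79a had 0.745 and 5.06 FPKM in DLP and 0.556 and 0.245 in VP. Cd22 was higher in MYC in both lobes, from WT values near 0. It had 0.0225 and 1.31 FPKM in DLP and 0.0107 and 0.426 in VP, both beyond counting error. The sum of the B and plasma cell genes is mostly Sdc1, which epithelium also expresses, and went from 68.3 to 117 FPKM in DLP and from 37.1 to 85.4 in VP, with 4 of 10 genes 2-fold higher in DLP and 1 in VP. Of 9 dendritic cell genes 3 were higher in DLP and 1, Ccr7, in VP (1.25 and 4.34 FPKM), while Siglech was lower in MYC DLP beyond counting error (0.707 and 0.232) and Zbtb46 was within it, and their sums were 7.88 and 24.3 FPKM in DLP and 3.05 and 7.28 in VP. The part of these cells in the member values, Cd4 included, was not tested.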

How the data were processed

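RNA of 6 dissociated prostate lobes was sequenced as stranded poly(A) libraries (single-end reads). The authors demultiplexed with bcl2fastq 2.18, aligned to mm10 with STAR and quantified with Cufflinks within VIPER. The deposited values are FPKM, although the methods speak of read counts, and no count model was run. Groups follow the sample titles. The members and all gene lists were chosen with earlier results of these data known.

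Values were compared as log2(FPKM + 1) with a 2-fold threshold, and as FPKM ratios. Reads were estimated from the depth and the mean transcript length (GENCODE M1) less 200 bases, known for 79.5% of the genes. Depth was set so that low values of genes with a single exon and transcript were whole reads: 51.2% to 56.1% of 79 to 100 values lay within 0.03 of a whole number (6% by chance). In simulated libraries of 25, 30 and 45 M reads these depths were returned. In DLP 200 of 200 genes changed by a known fold were called. Those genes were drawn from well-expressed ones and changed by more than the 2-fold threshold, so that this says nothing about members with low values.

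Besides the members, the 4 most abundant genes of each list were eligible for naming, with T cell and NK cell list genes past 2-fold in any lobe and the 5 genes most like the CD3 mean. Ms4a1, Siglech, Klrb1c, Tbx21, Col1a1, Ly6g and Retnlg were named after their values were seen. Alternatives were another pseudocount, threshold, scaling, transcript length, interval, depth and choice of members. Versions were scipy 1.17.1, numpy 2.4.6 and pandas 2.3.3 on Python 3.11.15, with plots from matplotlib 3.10.9. Some genes that the rule names are not reported here.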

Additional observations from a re-analysis of the deposited data

Results flagged for a closer look

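In 7 contrasts the log2 ratio of a member had opposite signs in 2 lobes, each from 1 library per lobe and genotype, so that the difference between the lobes was not tested. The log2 ratio of Cd3g, MYC over WT, stood at -0.04 for AP, 1.46 for DLP and 1.63 for VP, so that DLP exceeded AP by 1.49 and VP exceeded AP by 1.67. Gzmb stood at -0.11, 1.35 and 0.89 for the 3 lobes, so that DLP was 1.46 and VP 1 above AP. Gzma stood at -0.38, 0.01 and -1.21, so that DLP minus AP was 0.39 and VP minus DLP was -1.21. For Prf1 the values were -0.02 (AP) and 0.15 (VP), which differ by 0.17. The AP ratios of Cd3g, Gzmb and Prf1 and the DLP ratio of Gzma lay within counting error of 1, and so did the VP ratio of Prf1.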

How the results depend on the processing

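No paired analysis was possible because each genotype is 1 mouse, whose 3 lobes are not replicates. Of 180 single-member values under the alternatives, 124 stayed within counting error of the main value and 22 took the opposite sign, 8 of them in DLP and 7 in VP relative to the median of 8 genes of all leukocytes. Of those, the members past 2-fold in the main analysis were Cd3g -0.32, Cd8a -0.38, Cd8b1 -0.69, Gzmb -0.42 and Nkg7 -0.01 in DLP and Cd3e -0.17 in VP. On that scale 0 members were 2-fold higher in DLP and in VP, 3 were lower in DLP and 2 in VP, and the medians were -0.56 and -0.55. That scale lowers members below 1 FPKM by its construction, since the added 1 compresses their ratios more than those of the leukocyte genes. Cd3e, Cd3g, Gzmb and Nkg7, though, had means above 1 FPKM. As plain FPKM ratios in DLP, Cd3g (3.45) and Gzmb (2.73) stayed below the median of 4.01 over those leukocyte genes. Nkg7 (4.18), Cd8a (13.8) and Cd8b1 (36) lay above it, as did Cd3e in VP (4.58 against 3.77). With no value added (an alternative chosen after seeing the data), relative to the 8 leukocyte genes, 3 members were 2-fold higher in AP, 2 in DLP and 3 in VP. On this scale 2 were lower in DLP and 2 in VP, and the medians were 0.56, -0.08 and 0.29. With a pseudocount of 0.1, 4 members were 2-fold higher in AP (0 with 1) and 7 in VP (3 with 1), and the medians were 0.53 (AP), 1.89 (DLP) and 1.75 (VP). Relative to Krt8 and Krt18, 5 were higher and 0 lower in VP, and the medians were 0.99 in DLP and 1.05 in VP. At 4-fold, 0 members were higher in DLP and VP and 0 lower in VP. The DLP median was 1.46 over the 5 members whose mean was 1 FPKM or more, and 1.35 without Cd3d, Cd4, Cd8b1, Gzma or Prf1 and 1.09 without Cd3e, Cd3g, Cd8a, Gzmb or Nkg7. In AP the interval of Gzma held 1 with the shortest transcript length and at 99%, leaving 0 members below 1. Relative to Ptprc, 3 members and not 9 were highest in MYC DLP. Scaling moved the median of the 12361 genes that reached a mean of 1 FPKM from 0.04 to -0.15 in VP (equal sums) and -0.18 (equal sums without the 20 highest genes), from 0.03 to -0.11 in DLP (the latter) and from 0.13 to -0.00 in AP (medians of ratios). The cause of these shifts was not tested. Depth limits Cd8b1, Cd8a, Cd4 and Cd3d in WT, at 28 reads or fewer.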

Other observations

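Mast cell and neutrophil genes differed between the lobes. In MYC DLP the neutrophil genes S100a8 and S100a9 had 18.0 and 16.6 FPKM, against 1.26 and 0.402 in WT DLP, and in MYC VP they had 0.263 FPKM and a listed 0. Ly6g and Retnlg, also neutrophil genes, did not follow in DLP: Ly6g had 0.0592 FPKM in WT and a listed 0 in MYC, and Retnlg a listed 0 and 0.0716. Csf3r, of the same list and named after its values were seen, was higher in MYC DLP (0.514 and 3.56 FPKM) and VP (0.298 and 1.25). It was lower in MYC AP (1.31 and 0.738 FPKM), and all of these differences were beyond counting error. The mast cell proteases Mcpt4 and Tpsb2 had 8.26 and 6.52 FPKM in WT AP and 14.4 and 6.45 in MYC AP, and in MYC VP Mcpt4 was listed at 0 and Tpsb2 had 0.0276 FPKM. Of 11 such genes 4 were 2-fold higher in DLP, and in VP 1, Mcpt4, was 2-fold lower on the log2(FPKM + 1) scale. Il17a, a cytokine of gamma delta T cells and helper T cells, named after its values were seen, had 0.953 FPKM in MYC DLP and at most 0.162 in the other libraries. Of the immune lists, the median log2 ratio of the dendritic cell genes was -0.22 for AP, with 0 of 9 past 2-fold.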
